A study of Mus musculus with 10 samples.

Results

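The cytosolic ribosomal protein genes encode the proteins that, with ribosomal RNA, build the small (Rps) and large (Rpl) subunits of the ribosome outside mitochondria. They were chosen by symbol alone: every gene row named Rpl or Rps followed by a number, paralogs such as Rpl22l1 included, together with Rpsa, Rplp0, Rplp1 and Rplp2. Named pseudogenes and the Rps6 kinases were left out. The rule took 89 of 55809 gene rows, 36 of the small and 53 of the large subunit. Of these, 5 (Rps12l1, Rps3a2, Rps3a3, Rpl6l and Rpl32l) are annotated as processed pseudogenes in the reference annotation used here, and they were kept because their symbols match the rule.

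Treg cells, the CD4 T cells that restrain immune responses, were taken from spleen and lymph nodes of mice in which the Foxp3 protein carries an auxin-inducible degron (Foxp3-AID). All mice received the auxin analog 5-ph-IAA for 14 days. In R26-TIR1(F74G) mice (6 libraries) the ROSA26 locus also encodes TIR1(F74G), a plant ubiquitin ligase component that marks the degron-tagged protein for destruction, whereas R26-WT mice (4 libraries) lack it and keep Foxp3. TIR1(F74G) is driven by the ubiquitous CAG promoter after Cre, expressed from the same Foxp3 allele, removes a stop cassette, so it acts only in cells that have expressed Foxp3. Column names in the files call the mice male, and the labels give no age. The study's general sorting scheme used the ZsGreen reporter of the Foxp3 allele, with the mCherry reporter of the ROSA26 allele added for TIR1 cells. It is not stated for these libraries. Where it was used, the gate differed with the genotype, and gate and genotype cannot be told apart.

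Totals ranged from 24158699 to 54795718 counted read pairs per library. The degron acts on the protein, so the Foxp3 transcript does not check the labels. All 8 Treg markers (Foxp3, Il2ra, Ctla4, Ikzf2, Ikzf4, Tnfrsf18, Cd4 and Cd3e) were detected, with summed levels of 3254 to 3508 CPM (counts scaled to a common library total) in R26-WT and 3049 to 3380 in R26-TIR1(F74G). The B cell, myeloid, CD8 and NK, and erythroid lists summed to at most 31.3, 88.1, 42.3 and 0.579 CPM in any library, and S100a9 and Ncr1 had a count of 0 throughout. Nearly all of the B cell sum came from Cd79a and Cd79b, of the myeloid sum from Cst3 and of the CD8 and NK sum from Cd8b1. Every other gene of those lists reached at most 1.08 CPM in any library.

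Ribosomal proteins are made in near-equal numbers, since each ribosome holds a single copy of almost all of them. Their mRNAs are short, abundant and stable, and many begin with a C followed by a run of pyrimidines, the 5′ terminal oligopyrimidine (TOP) tract, through which mTOR and Larp1 control their translation together. T cells that leave rest raise ribosome production to grow and divide. Mammalian genomes also hold many processed pseudogenes of these genes, copies of the spliced mRNA inserted elsewhere.

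The starts of 7 members described below are shown because the TOP tract is known from many of these genes and was not used in the selection by symbol. Sequences are RefSeq (GRCm38.p6), 5′ to 3′ on the gene's strand, 12 bases before and 16 bases from the annotated start on. Capitals mark a run of at least 6 C or T that overlaps the start or the 5 bases on either side. Rps27 lies at chr3:90213633-90213660 (minus), Rps10 at chr17:27635229-27635256 (minus), Rpl22l1 at chr3:28805496-28805523 (plus), Rpl28 at chr7:4792953-4792980 (plus) and Rplp2 at chr7:141447639-141447666 (plus). Rps13, at chr7:116334175-116334202 (minus), and Rpl11, at chr4:136053378-136053405 (minus), have no such run at the RefSeq start. The 7 were picked to show starts with and without a run, not in proportion: of the 20 members named by rule that have an entry, 10 have a run.
Rps27: tccgctttcgCTCCTTTCCggcggtgac
Rps10: ccgcgcacgCCCCTTCCTTTCCagcctc
Rpl22l1: cggcgcaagcccgTTCTCTTCCCacggc
Rpl28: cctctcgtgTCTCTCTTTCCgtctccgg
Rplp2: gtcagcgTCTTCCTTTCgccgccggacg
Rps13: agcaaacgtcggtgagtggcgtcacttc
Rpl11: acccataaggccacggggccggaagtct

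A run of this kind stood at a RefSeq start of 33 of the 64 members with an entry (51.6%), and of 6448 of 26961 other genes (23.9%). Counted by entry, since some genes have several, it stood in 34 of 76 member entries (44.7%) and in 21.0% of all 32851 promoter entries. It was found for 6 of 16 genes of a translation factor list (37.5%), 20 of 65 oxidative phosphorylation genes (30.8%), 18 of 69 mitochondrial ribosomal protein genes (26.1%) and 2 of 26 ribosome biogenesis genes (7.69%). Only the gene's strand was searched, and a start annotated a few bases away from the true one can miss the tract. Tested members with a run (33) and without (29) had median log2 fold changes between genotypes of -0.06 and -0.07.

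The first question was whether loss of Foxp3 protein moved the ribosomal protein mRNAs. Their summed counts made up 0.981%, 0.917%, 1.42% and 1.33% of all counts in R26-WT replicates 1 to 4. In R26-TIR1(F74G) the share was lowest at 0.815%, with a median of 1.08% and a highest value of 1.31%. The groups overlapped, and the highest and the lowest library over all differed by 1.74 times. The means were 1.16% ± 0.251 (SD, n = 4) and 1.10% ± 0.172 (SD, n = 6), a difference smaller than the spread within either group. Counting error was small beside that spread: 95% Wilson intervals reached at most 0.00406 percentage points from the share. In bulk RNA, a smaller share of cells with many ribosomal protein mRNAs and less such mRNA per cell cannot be told apart.

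**Figure D1:**
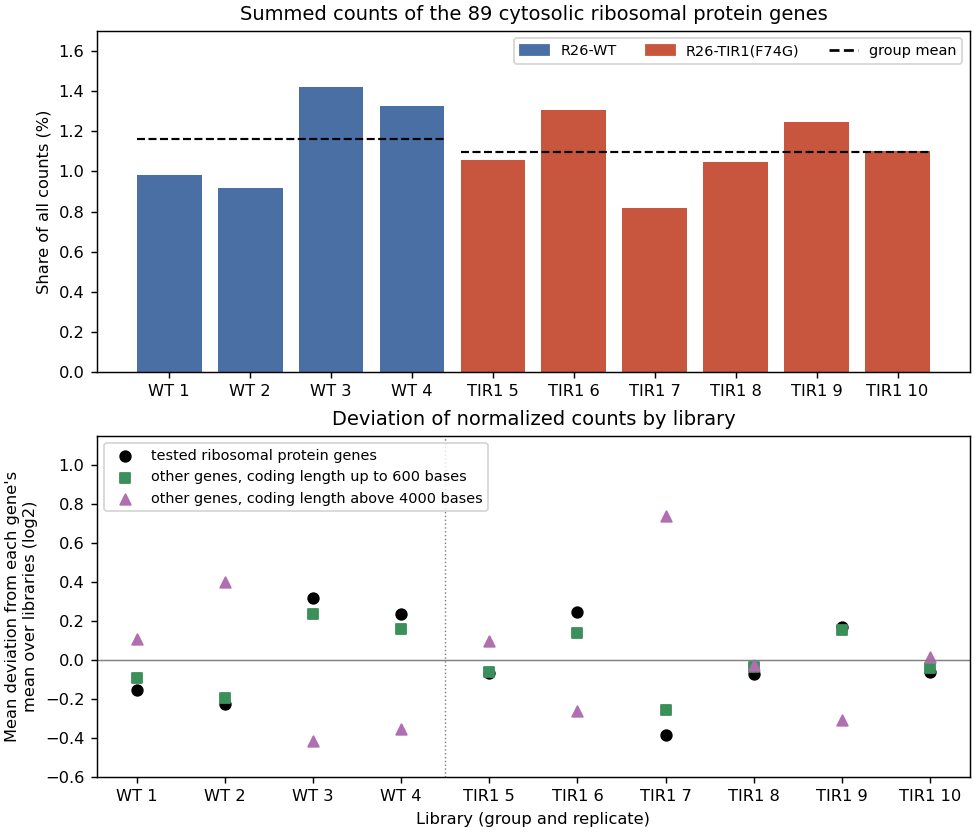
Upper panel: summed counts of the 89 ribosomal protein genes as a percent of all counts in each library, bars from 0, with dashed lines at the group means. Lower panel: mean log2 deviation of normalized counts from each gene's mean over the 10 libraries, for the 86 tested ribosomal protein genes and for other genes with short or long coding sequences; ribosomal protein genes and other short genes move together and long genes move the opposite way in most libraries, in both groups.

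Of the 86 members with a mean of at least 10 counts, DESeq2 called 0 between the genotypes at an adjusted p of 0.05, where it called 284 of 16363 genes (1.74%). At an unadjusted p under 0.05 there was 1 member (Rps13), against 6.86% of all tested genes. The edgeR quasi-likelihood test also called 0 members, against 0.373% of all genes, and gave 1 member an unadjusted p under 0.05, against 6.21% of all genes. Members had a median log2 fold change (R26-TIR1(F74G) over R26-WT) of -0.08, with a range from -0.41 to 0.23, beside a median of 0.00063 over all tested genes. Other genes with short coding sequences and at least 100 counts were close to the members. Their median was -0.08 for up to 300 bases and -0.07 for above 300 up to 600. Below 0 lay 68 of 86 members and 49.9% of all genes. So did 65 of 77 tested mitochondrial ribosomal protein genes and 51 of 75 oxidative phosphorylation genes, so the lean was not particular to the members. The members' median was 0.03 without R26-WT replicate 3, 0.03 with 1 surrogate variable and -0.01 without R26-WT replicate 4 or R26-TIR1(F74G) replicate 7. In the other direction it was -0.17 and -0.15 when replicate 2 or replicate 1 of R26-WT was left out, -0.14 without R26-TIR1(F74G) replicate 6 and -0.13 with limma voom.

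The intervals bound how large a change could have been missed. Standard errors of the members' log2 fold changes ran from 0.11 to 0.67 with a median of 0.18. For 84 of the 86 members the 95% interval lay wholly between -1 and 1, so a doubling or a halving is outside it, and for 66 it lay between -0.5 and 0.5. The exceptions to the wider bound were Rps4l and Rpl39l. The 35 tested small subunit members had a median of -0.11, with 32 below 0, and the 51 tested large subunit members a median of -0.06, with 36 below 0. No member had groups that did not overlap, whereas among all genes the groups did not overlap for 1.57% with R26-TIR1(F74G) higher and for 0.801% with it lower.

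**Figure D2:**
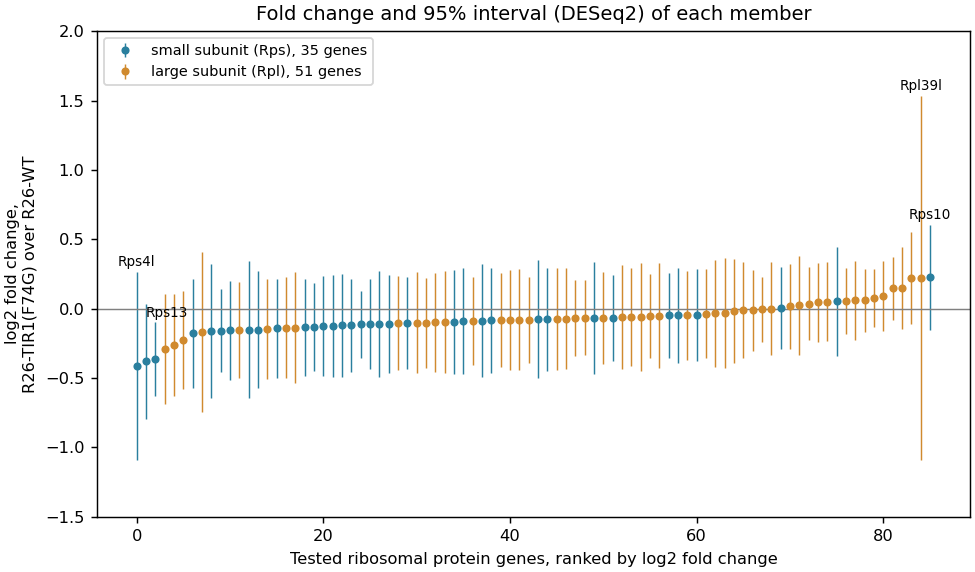
The log2 fold change of each of the 86 tested members (points) with its 95% interval from DESeq2 (bars), ranked, coloured by subunit. Nearly all intervals include 0, Rps13 being the exception, and the wide interval on the right is that of Rpl39l, which had few counts.

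Rps13, a small subunit protein (chr7:115930740-115933430, minus strand, GRCm39), had the smallest p of the members. Its normalized counts were 1147, 893, 1085 and 928 in R26-WT, and 706 at the lowest, 765 at the median and 989 at the highest in R26-TIR1(F74G). All R26-TIR1(F74G) libraries but replicate 9 lay below every R26-WT library. The log2 fold change was -0.36 (SE 0.13, DESeq2 adjusted p 0.231), and edgeR gave an adjusted p of 0.427. Reads from Rps13 can also fall on its processed copies, and with the counts of those copies added the log2 fold change was -0.15 (unadjusted p 0.344, DESeq2). Without R26-TIR1(F74G) replicate 9 it was -0.43 (DESeq2 adjusted p 0.0197), and Rps13 was then the only member called, with 1.59% of all genes called. With 1 surrogate variable in the model it was -0.34 (DESeq2 adjusted p 0.0405), again the only member called, where 4.54% of all genes were called.

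Rps27, a small subunit protein with a zinc finger (chr3:90119829-90120958, minus strand), came next. Its normalized counts were 541, 470, 846 and 702 in R26-WT and ran from 350 through a median of 478 to 614 in R26-TIR1(F74G), so the groups overlapped. The log2 fold change was -0.38 (SE 0.21, DESeq2 adjusted p 0.879), and -0.34 with the counts of processed copies added. With a library left out it ran from -0.50 (without R26-WT replicate 2) to -0.21 (without R26-WT replicate 3). Rpl24, which forms a bridge between the subunits (chr16:55786638-55791798, plus strand), had 144, 130, 199 and 178 in R26-WT and 104, 127 and 180 as lowest, median and highest in R26-TIR1(F74G). Rpl36a, a large subunit protein (chromosome X), had 124, 133, 148 and 146, against 84.3, 122 and 143. Both lists of values overlapped, with log2 fold changes of -0.29 (SE 0.20) for Rpl24 and -0.23 (SE 0.18) for Rpl36a. With the counts of processed copies added they were -0.08 and -0.09. With a library left out, Rpl24 ran from -0.38 to -0.18 (without R26-WT replicate 3) and Rpl36a from -0.29 to -0.14.

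The members with the smallest p among those higher in R26-TIR1(F74G) were Rpl11, Rpl30, Rps10, Rpl35a and Rpl5. Rpl11 and Rpl5 bind Mdm2 when ribosome assembly is disturbed, which links ribosome production to the p53 response. Rpl11 (chr4:135755576-135780739, minus strand) had 354, 376, 443 and 509 normalized counts in R26-WT and a lowest, median and highest value of 400, 477 and 619 in R26-TIR1(F74G). Rpl5 had 378, 368, 383 and 398, against 365, 407 and 439. Their log2 fold changes were 0.22 (SE 0.17) and 0.08 (SE 0.11), within the spread between libraries.

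Rpl30, a large subunit protein, had 721, 588, 820 and 780 normalized counts in R26-WT, and 776, 788 and 870 as lowest, median and highest in R26-TIR1(F74G). Rps10, a protein of the small subunit head, had 187, 234, 288 and 299, against 226, 296 and 364. Rpl35a, a gene mutated in some cases of Diamond-Blackfan anaemia, had 326, 368, 438 and 472, against 386, 437 and 529. In each of these genes the R26-WT values were lower in replicates 1 and 2 than in replicates 3 and 4, and both of the latter lay within the R26-TIR1(F74G) range, as did replicate 2 for Rps10. The log2 fold changes were 0.15 (SE 0.12), 0.23 (SE 0.19) and 0.15 (SE 0.15). With a library left out they ran from 0.06 to 0.21, from 0.11 to 0.32 and from 0.06 to 0.24. The lowest values were without R26-WT replicate 2 for Rpl30 and without R26-WT replicate 1 for Rps10 and Rpl35a. With the counts of processed copies added, the log2 fold changes of Rpl11, Rps10 and Rpl5 turned to -0.06, -0.10 and -0.11. Those of Rpl30 and Rpl35a changed little, to 0.13 and 0.14.

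**Figure D3:**
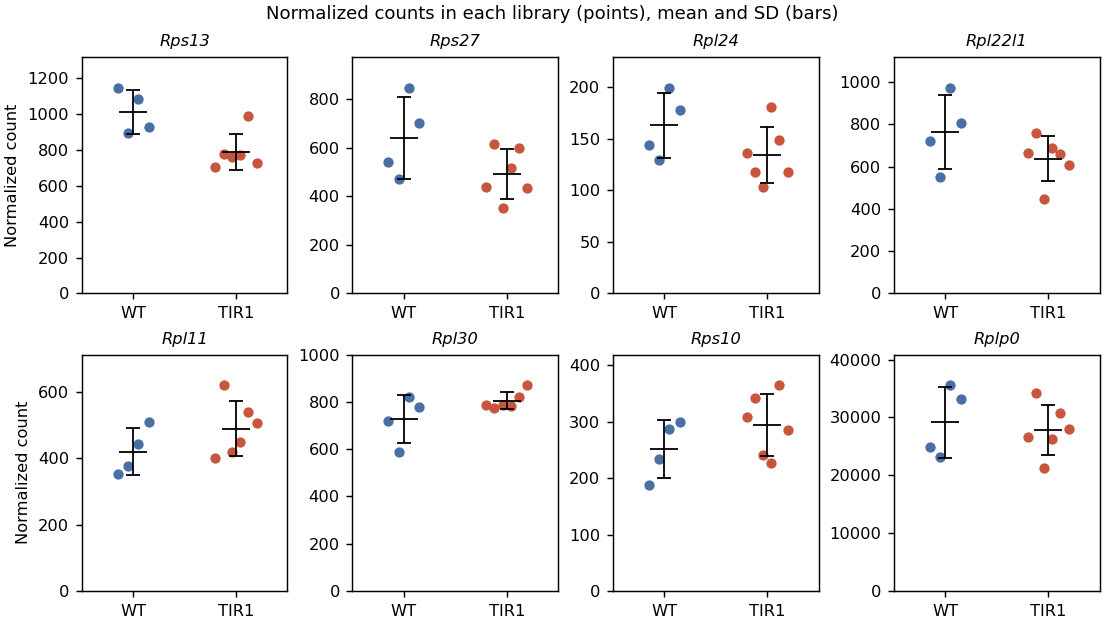
Normalized counts of 8 members in each R26-WT (4) and R26-TIR1(F74G) (6) library (points), with the group mean and SD (bars) and axes from 0. The upper row shows the lower genes Rps13, Rps27, Rpl24 and Rpl22l1, the lower row the higher genes Rpl11, Rpl30 and Rps10 and the stalk gene Rplp0, and the groups overlap in every panel.

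The stalk of the large subunit, built of Rplp0, Rplp1 and Rplp2, recruits elongation factors, and Rpsa is a small subunit protein also known as the laminin receptor. Rplp0 had 24866, 23090, 35510 and 33106 normalized counts in R26-WT, and 21304, 27260 and 34143 as lowest, median and highest in R26-TIR1(F74G). Rplp1 had 8124, 7682, 12511 and 11213, against 6857, 9420 and 12122. Rplp2 had 1282, 1141, 1873 and 1730, against 1130, 1444 and 1792. In all of them R26-WT replicates 3 and 4 stood above replicates 1 and 2, by more than the group means differed. Rpsa had 3804, 3749, 5551 and 5143, against 3185, 4121 and 5088, with the same order of R26-WT libraries. Log2 fold changes were -0.07 (SE 0.17), -0.05 (SE 0.19), -0.08 (SE 0.19) and -0.12 (SE 0.17) for Rplp0, Rplp1, Rplp2 and Rpsa.

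Paralogs replace some ribosomal proteins in particular tissues. Rpl10l, known from testis, had 0 of 446657894 counts over the 10 libraries, which allows a level of up to 0.00672 CPM in uniquely placed reads. The pseudogene row Rps12l1 also had 0, but its sequence has 23 near full-length copies, the best of them identical, so that its reads can have been left out and the count sets no bound on its level. Rpl3l, known from striated muscle, had 37 counts in all. These 3 rows fell under the mean of 10 counts and were not tested. Rpl39l, also known from testis, had from 1 to 33 counts per library and a log2 fold change of 0.22 with a wide error (SE 0.67).

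Rpl22l1, the paralog of Rpl22, a protein needed for the development of αβ T cells, was well expressed. Its normalized counts were 722, 553, 973 and 808 in R26-WT and 445, 663 and 761 as lowest, median and highest in R26-TIR1(F74G), with a log2 fold change of -0.26 (SE 0.19), or -0.17 with the counts of processed copies added. With a library left out the log2 fold change ran from -0.39 (without R26-WT replicate 2) to -0.12 (without R26-WT replicate 3). Of the counts of the pair, Rpl22l1 took from 11.7% to 14.2% in R26-WT and from 10.7% to 12.4% in R26-TIR1(F74G), ranges that overlap. Rps27l took from 77.9% to 80.3% of its pair with Rps27 in R26-WT and from 79.2% to 84.7% in R26-TIR1(F74G). Rps27l had 2177, 1919, 2985 and 2826 normalized counts in R26-WT and 1673, 2197 and 2937 in R26-TIR1(F74G), again lowest, median and highest. Such shares are of assigned reads, and the Rps27 coding sequence has 13 near full-length copies elsewhere in the genome, the best of them identical, against 5 with at most 94.4% identity for Rps27l.

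Rps4l had the widest spread of the members with at least 100 counts on average. Its normalized counts were 190, 171, 229 and 284 in R26-WT, and 73.1, 132 and 288 as lowest, median and highest in R26-TIR1(F74G), an SD within groups of 0.63 on the log2 scale. Its log2 fold change was -0.41 (SE 0.35). Rpl7l1 was among the steadier paralogs, with 6765, 7409, 8441 and 8054 in R26-WT and 7068, 7977 and 9137 in R26-TIR1(F74G), and a log2 fold change of 0.06 (SE 0.12).

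The variation of the members between libraries was larger than that between genotypes. The members' mean log2 deviation from their own means was -0.15, -0.23, 0.32 and 0.23 in R26-WT replicates 1 to 4. In R26-TIR1(F74G) it was -0.39 at the lowest (replicate 7), -0.06 at the median and 0.25 at the highest (replicate 6). R26-WT replicates 3 and 4 and R26-TIR1(F74G) replicates 6 and 9 were high, with 81, 85, 81 and 80 of the 86 members above their own mean, and R26-WT replicates 1 and 2 and R26-TIR1(F74G) replicate 7 were low, with 6, 5 and 2 members above. For 68 members R26-TIR1(F74G) replicate 7 held the lowest normalized count of all libraries, and for 57 R26-WT replicate 3 held the highest.

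The members deviated together across libraries. The median of the 3655 pairwise Pearson correlations across the 10 libraries was 0.84, and 3621 of them were above 0. It was 0.79 without R26-TIR1(F74G) replicate 7 and 0.83 without R26-WT replicate 3, and 0.94 and 0.86 within R26-WT and within R26-TIR1(F74G). Library scaling and amplification are shared by all members of a library, so these correlations are a description of the libraries and carry no p. Against the mean of the other members, 67 of 86 correlated above 0.8. The lowest correlations belonged to Rpl28 (0.23), Rps6 (0.31), Rpl35a (0.32), Rps13 (0.32) and Rpl30 (0.39), all of them at no more than 20.2 CPM.

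Rpl5, Rpl28 and Rpl30 were the steadiest members, with SDs within groups of 0.09, 0.12 and 0.14 on the log2 scale. Rpl28, a large subunit protein, had 283, 292, 265 and 307 normalized counts in R26-WT and 256, 295 and 341 as lowest, median and highest in R26-TIR1(F74G). At the other end, among members with at least 100 counts on average and after Rps4l, stood the small subunit genes Rps29 (SD 0.42) and Rps23 (SD 0.35). Rps29 had 221, 170, 321 and 287 normalized counts in R26-WT and 140, 213 and 308 in R26-TIR1(F74G). Rps23 had 305, 278, 453 and 425, against 221, 353 and 446. Both were high in R26-WT replicates 3 and 4 and lowest in R26-TIR1(F74G) replicate 7.

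The ribosomal protein genes have short coding sequences, with a median of 468 bases, and the other genes were therefore grouped by coding length. The 1280 other genes with a coding sequence of up to 600 bases and at least 100 counts had mean deviations that correlated with those of the members at Pearson's r 0.99 and Spearman's rho 0.93 over the 10 libraries, and at 0.99 and 0.77 over the 6 R26-TIR1(F74G) libraries. The 624 genes with a coding sequence above 4000 bases moved the opposite way (r -0.96, rho -0.93). In R26-TIR1(F74G) replicate 7 the deviations were -0.39 for the members, -0.25 for other short genes and 0.74 for the longest genes. In R26-WT replicate 3 they were 0.32, 0.23 and -0.41.

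The slope of log2 deviation on log2 exon length over other genes summarised this in a single value for each library. It ran from -0.15 to 0.12 per doubling of length in R26-WT and from -0.09 to 0.18 in R26-TIR1(F74G), and correlated with the members' mean deviation at r -0.99 and rho -0.95. Without the 2 libraries farthest from the median slope (R26-WT replicate 3 and R26-TIR1(F74G) replicate 7) r was -0.98. The members' deviation was not aligned with library size (r 0.10, rho 0.13). It followed the first principal component of the 500 most variable genes (60.5% of their variance, r 0.96, rho 0.92), although none of the 500 was a member.

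Other lists were set beside the members over the same libraries. The summed B cell markers were 18.9 to 31.3 CPM in R26-WT and 16.1 to 27.7 in R26-TIR1(F74G), and the mean deviation of the 2 B cell genes with enough counts correlated with that of the members at r 0.77 and rho 0.67. That of the Treg markers did so at r -0.69 and rho -0.71, the proliferation list at r -0.47 and rho -0.38, the CD8 and NK list at r -0.37 and rho -0.44, the erythroid list at r -0.22 and rho -0.31 and the myeloid list at r -0.10 and rho -0.13. Without the 2 libraries farthest from the median of each list, r was 0.56 for B cell markers, -0.62 for Treg markers and 0.03 for the proliferation list, and its sign turned for the CD8 and NK list (0.19) and the erythroid list (0.15). Over the 6 R26-TIR1(F74G) libraries the Treg markers were at r -0.93 and rho -1. The labels give RNA integrity as a range for all libraries, not for each. The part of integrity, of amplification and of other cells in the members' variation was not tested.

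Removing from each library the trend of other genes on coding length narrowed the variation of the members. It applied to the 82 tested members with a coding length, and the pseudogene rows Rpl32l, Rpl6l, Rps3a2 and Rps3a3, which have none, are left out of these values. The SD over libraries of the mean deviation of the 82 members was 0.23 with size factors alone and 0.090 after removal, and the median SD within groups of the 80 with at least 100 counts was 0.27 before and 0.14 after. For the 1280 other genes with a short coding sequence that median fell likewise, from 0.25 to 0.13, and for all 9679 other genes with a coding length it was 0.24 before and 0.18 after. The members still shared part of their deviations, with a median pairwise correlation of 0.34 and 2489 of 3321 above 0. After removal their mean was lowest in R26-TIR1(F74G) replicate 7 (-0.16), as before, and highest in R26-TIR1(F74G) replicate 6 (0.12), followed by R26-WT replicate 3 (0.10), which had been highest before. DESeq2 with this correction called 0 of the 82, where it called 2.38% of all genes, and their median log2 fold change was -0.03. At an unadjusted p under 0.05 there were 4 members (8.76% of all genes): Rps27 and Rps13 lower, Rpl11 and Rps10 higher.

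**Figure D4:**
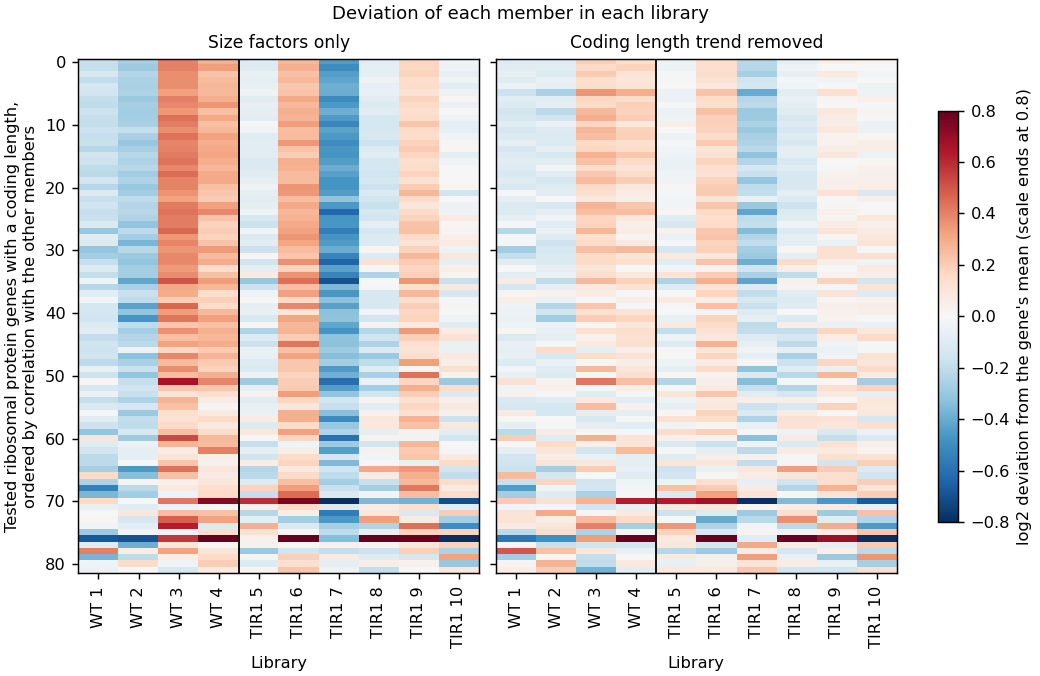
Log2 deviation of each of the 82 tested members with a coding length (rows) from its mean over libraries, by library (columns; the line separates R26-WT from R26-TIR1(F74G)), with size factors only (left) and after removal of each library's coding length trend (right). On the left most rows are high in R26-WT replicates 3 and 4 and R26-TIR1(F74G) replicates 6 and 9 and low in R26-TIR1(F74G) replicate 7, and on the right these columns fade.

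The other translation lists held no called gene, which in lists of this size is close to the share of all tested genes called (1.74%). Of 22 translation factor genes, among them the elongation factors Eef1a1 and Eef2, 0 were called and 15 lay below 0 (median log2 fold change -0.07). Of 30 ribosome biogenesis genes, which act in rRNA synthesis and subunit assembly, 0 were called and 21 lay above 0 (median 0.04). Of 17 tested genes of mTOR and TOP control, including Mtor and Larp1, 0 were called (median 0.08), as were 0 of 8 chaperones of ribosomal proteins (median -0.09). At an unadjusted p under 0.05 these lists together held 1 gene, a translation factor, against 6.86% of all tested genes, and edgeR called 0 in each.

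Gene lists outside the cytosolic ribosome also varied with the libraries, in either direction. The 77 tested mitochondrial ribosomal protein genes and 75 oxidative phosphorylation genes had mean deviations that correlated with those of the members at r 0.99 and 0.99, translation factors at r 0.97 and mTOR and TOP control genes at r -0.95. Ribosome biogenesis genes followed less closely, at r 0.47, and at -0.02 without R26-TIR1(F74G) replicates 6 and 7, although r was 0.82 and rho 0.83 over the 6 R26-TIR1(F74G) libraries. Of the mitochondrial ribosomal protein and oxidative phosphorylation genes, DESeq2 called 0 and 0 (1.74% of all tested genes), with 0 and 0 at an unadjusted p under 0.05 (6.86% of all tested genes), and edgeR 0 and 0. Below 0 lay 65 of the 77 (median log2 fold change -0.09) and 51 of the 75 (median -0.04).

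The proliferation list differed between the genotypes in the same libraries. DESeq2 called 14 of its 18 genes higher in R26-TIR1(F74G), where it called 1.4% of all genes higher, and edgeR called 6. The list's median log2 fold change was 1.35. The 6 with the smallest DESeq2 adjusted p were Stmn1 (log2 fold change 1.30), Rrm2 (1.43), Cdk1 (1.39), Aurkb (1.66), Birc5 (1.56) and Ccnb2 (1.83). The ribosomal protein genes were at a median of -0.08 in that comparison, and the difference between the lists was not tested.

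The levels of the members differed with the number and identity of copies of their sequence in the genome. The counts hold primary alignments with a mapping quality of at least 30, which leaves out a read that fits a copy elsewhere in the genome equally well. Of the 84 members with a coding sequence in the annotation, 74 had at least 1 other place in the genome that matched at least 80% of it at 90% identity or more. The number of such copies reached 81 for Rpl21 and 78 for Rpl7a, with a median of 7.5. Levels below are CPM per kilobase of coding sequence, mean of the 10 libraries.

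The 10 members without a near full-length copy had a median level of 449.7, and the 13 whose best copy had under 98% identity 303.3. It was 208 for the 9 members with a best copy of 98% to 99%, and 44.2 for the 52 with a best copy of 99% or more. The highest levels were those of Rpl32 (1946), the very small Rpl41 (1900), Rps3 (1495) and Rpl4 (1433), all with no near full-length copy or with a best identity of at most 96.9%. Low levels occurred with and without close copies. Rpl23a (1.80), with 34 near full-length copies and a best identity of 99.8%, stood among the lowest, but so did the paralogs Rpl3l (0.065) and Rpl39l (2.64), which have no near full-length copy, and Rps4l (5.44), whose best copy has 93.5% identity. Rps29 (19.0) also has no near full-length copy of its annotated coding sequence, although 56.8% of that sequence lies in shorter matches. Per kilobase of all annotated exon bases, the highest levels were those of Rpl4 (897) and Rpl32 (818) CPM.

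**Figure D5:**
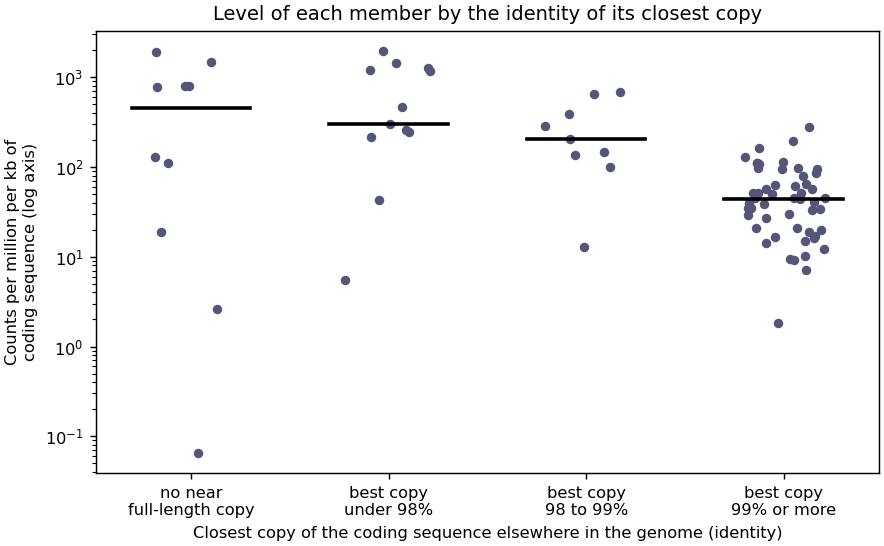
Level of each ribosomal protein gene with a coding sequence and at least 1 count (points; CPM per kilobase of coding sequence, mean of 10 libraries, log axis) by the identity of the closest near full-length copy in the genome. Horizontal lines are class medians over all members of the class, and the class with a copy of 99% identity or more lies lowest.

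The most abundant members had similar fold changes between the genotypes. Rpl4, a large subunit protein (chr9:64080657-64085948, plus strand), had 69645, 65223, 96899 and 92551 normalized counts in R26-WT and 58656, 75311 and 90441 as lowest, median and highest in R26-TIR1(F74G). Rpl32 (chr6:115782466-115785708, minus strand) had 29335, 28911, 44100 and 40485, against 25562, 32401 and 40866. Both had a log2 fold change close to the members' median, -0.09 (SE 0.16) and -0.10 (SE 0.17), each smaller than the spread of that gene between libraries. The order of the members' levels was nearly the same in the groups (Spearman's rho 0.998 between group means over 86 genes, a description across genes).

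Reads were also assigned to the copies. There were 612 rows of processed pseudogenes that lie at least 50% within copies of a member's coding sequence, and they summed to between 3190 and 5840 CPM per library, beside 8153 to 14220 CPM for the members. A few of the rows with the most counts are given here, chosen after their values were seen. Rpl14-ps1 (chr7:44974389-44975041, GRCm39) had 283 CPM beside 252 CPM for Rpl14, the member it matches, and Rpl3-ps1 (chrX:13068810-13070019) had 281 CPM beside 62.8 for Rpl3. Rps16-ps2 (chr5:129205141-129205581) had 222 CPM beside 5.39 for Rps16, and Gm14303 (chr2:172351441-172351611) had 208 CPM beside 5.41 for Rps29. The rows thus ranged from a level near that of the member to one far above it. Whether such reads came from the copy or from the parent gene was not tested. Of 172 tested copy rows, DESeq2 called 0 (1.74% of all tested genes), with 0 at an unadjusted p under 0.05 (6.86% of all tested genes), and their median log2 fold change was -0.10. With each member's counts summed with those of its copies, 0 of 87 members were called, where 1.75% of all genes were, their median was -0.09, and the share of counts was 1.28% to 2.01% in R26-WT and 1.13% to 1.84% in R26-TIR1(F74G).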

How the data were processed

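Raw read-pair counts per gene, 1 file per library, were deposited by the authors and not normalized. Counting was with featureCounts 2.1.1 on GENCODE M30 (GRCm39), per the file headers, on primary alignments with a mapping quality of at least 30 whose mates both mapped to the same chromosome, with no strand option. A read pair overlapping several genes was left out. The study's methods name STAR and the submitters' processing notes Bowtie2, so the aligner is uncertain. Per the labels, cDNA was amplified by PCR without molecular identifiers, so intervals cover counting error only. Nothing says whether libraries came from separate mice, and p-values measure the spread between libraries. Chi-square per degree of freedom between libraries of a group was at least 9.56 in 21 pairs, so none was taken as a duplicate.

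Genes with a mean of at least 10 counts (16363) were tested in R 4.3.3 with DESeq2 1.42.0 (two-sided Wald test, genotype only, all 10 libraries, Benjamini-Hochberg adjusted p under 0.05), the study's design. Alternatives were edgeR 4.0.16 and limma 3.58.1 (voom), other size factors and filters, trends on exon length, GC or coding length (mgcv 1.9.3, fitted on genes that are not members), 1 surrogate variable (sva 3.50.0), copy rows added to members, and each library left out. Log2 deviations used normalized counts plus 0.5. Copies were found by aligning coding sequences of canonical transcripts to GRCm39. The code was tested on simulated data. Named members were the 5 higher and 5 lower with the smallest p, the 3 highest and 3 lowest by CPM per kilobase of exon, the 3 largest and 3 smallest SDs among members with a mean of at least 100 counts, paralogs, Rpsa and the stalk genes, of which 1 is not reported here. Members and lists were chosen with earlier results of these data known.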

Additional observations from a re-analysis of the deposited data

Results flagged for a closer look

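The normalized count of Rps13 in R26-TIR1(F74G) replicate 9 was 989, apart from the other R26-TIR1(F74G) libraries, which lay between 706 and 779. Of the whole range of that group, 0.741 fell between this library and the next. This was 1 of 54 groups of values examined in this way, of which about 1 in 20 would be marked by chance. No explanation was tested.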

How the results depend on the processing

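No paired analysis was possible because no replicate number occurs in both genotypes. The count of members called stayed at 0 in all alternatives but a pair: it was 1 (Rps13) with 1 surrogate variable (log2 fold change -0.34, DESeq2 adjusted p 0.0405; 743 of 16363 genes called, 4.54%) and 1 (Rps13) without R26-TIR1(F74G) replicate 9 (1.59% of all genes called), so leaving out a library gave 0 to 1. The cause was not tested. Over its 21 alternatives the adjusted p of Rps13 was 0.0197 at the lowest and its log2 fold change ran from -0.43 to -0.15. The members' median log2 fold change ran from -0.13 to 0.03 over 11 other settings, above 0 with 1 surrogate variable, and from -0.17 to 0.03 when a library was left out, above 0 without R26-WT replicate 3. It was -0.01 when R26-WT replicate 4 was left out, and -0.01 when R26-TIR1(F74G) replicate 7 was. The difference in summed share (R26-TIR1(F74G) minus R26-WT, percentage points) was -0.066, and -0.15 to 0.021 with a library left out. Within the counts of genes with up to 1500 exon bases it was -0.0053, with shares of 4.22% to 4.54% in R26-WT and 4.24% to 4.57% in R26-TIR1(F74G). The SD over libraries of the members' mean deviation (0.23) was 0.11 with the exon length trend removed, 0.11 with exon length and GC and 0.097 with coding length (with 4 pseudogene rows that have none left uncorrected), as those fits take out a shared trend, and 0.20 to 0.24 with a library left out. Of 10 members followed by name, 7 kept their direction throughout. DESeq2 called 284 genes in all, edgeR 61, limma voom 80 and DESeq2 with the length trend removed 398. Coding length trends, added copy rows and the variation alternatives were chosen after seeing the data. Depth limits what could be seen of members with few counts, such as Rpl23a with 379 in all. DESeq2 called between 10 and 15 proliferation genes with a library left out.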
